A study of Mus musculus with 12 samples.

Results

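The hydroxysteroid dehydrogenase genes Hsd17b13 and Hsd17b11 lie next to each other on mouse chromosome 5, with Nudt9, Aff1, Sparcl1, Klhl8 and Ptpn13 as neighbours. The rows of these 7 genes were found by their symbols in a deposited table of 56748 genes, and all 7 were among the 14003 genes with enough counts to be tested. The 7 genes were chosen with the knockout against wild type results of these libraries known. Their knockout against wild type values are therefore given as a description, without p-values.

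The series holds 12 bulk poly(A) RNA-seq libraries of mouse liver in 4 groups of 3. The Cyp2e1 knockout groups were females and males of the line 129/Sv-Cyp2e1tm1Gonz/J, in which the cytochrome P450 gene Cyp2e1 is disrupted. The wild type groups were females and males of 129S1/SvImJ. All mice shared 1 age, 16 weeks, a normal chow diet and co-housing, and the labels name no agent. The knockout line and the wild type line are separate lines, so each knockout against wild type value is also a comparison of lines, and the allele and the rest of the genome cannot be told apart. The 3 libraries of a group are biological replicates per the series' design text.

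Library totals ran from 15167730 counts (male knockout replicate 2) to 25082532 counts (female knockout replicate 3). Cyp2e1, the targeted gene, lay between 230 and 323 CPM, counts scaled to a common library size, in female knockout livers, against 6213 to 7076 CPM in female wild type livers. It lay between 318 and 403 CPM in male knockout livers, against 10370 to 11480 CPM in male wild type livers. Libraries also differed in how counts depended on gene length. The slope of a library's log2 CPM deviation on log2 gene length was 0.084, 0.29 and 0.19 in the female knockout libraries, against -0.14, -0.23 and -0.20 in the female wild type libraries. It was 0.084, -0.17 and 0.17 in the male knockout libraries, against -0.030, 0.11 and -0.16 in the male wild type libraries. The slopes of the female groups did not overlap and those of the male groups did. Muscle genes stood out in female knockout replicate 2, where Acta1, skeletal muscle actin, had 41.8 CPM, against 0 counts in each of the other 11 libraries.

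HSD17B13 and HSD17B11 are short-chain dehydrogenase/reductase enzymes that sit on the surface of lipid droplets, the cell's stores of neutral lipid. HSD17B13 is made mainly by hepatocytes, and in humans a loss-of-function allele of its gene is known for an association with protection from chronic liver disease. HSD17B11 is more widely made and is known for activity on steroids. Among the neighbours, NUDT9 is a mitochondrial ADP-ribose pyrophosphatase, AFF1 is a scaffold of a transcription elongation complex, KLHL8 is a substrate adaptor of a ubiquitin ligase, PTPN13 is a large protein tyrosine phosphatase and SPARCL1 is a secreted matrix protein.

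In mm39, the build named in the submitters' processing notes, the 7 genes span 688.5 kb of chromosome 5. From low to high coordinate they are Ptpn13 (chr5:103573058-103746169, plus strand), Aff1 (chr5:103840240-104003188, plus), Klhl8 (chr5:104009839-104059125, minus), Hsd17b13 (chr5:104103306-104125276, minus; ENSMUSG00000034528), Hsd17b11 (chr5:104137628-104169785, minus; ENSMUSG00000029311), Nudt9 (chr5:104194172-104213245, plus) and Sparcl1 (chr5:104226977-104261599, minus). All are annotated as protein coding. The 2 dehydrogenase genes are separated by 12351 bases. The antisense gene Gm43545 overlaps Nudt9 by 1092 bases, and it had 35 counts over all libraries against 11824 counts of Nudt9. The other genes annotated over the 7 had 0 counts. Whether the counting used strand is not stated in the labels or the table.

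The sequences around the starts of Hsd17b13, Hsd17b11 and Nudt9 are shown because these 3 genes had the highest levels of the 7 and followed each other closely across libraries. Each window runs from 250 bases before to 50 bases after the start, 5′ to 3′ on the gene's strand, as RefSeq gives it on GRCm38.p6. The coordinates of these windows are in that build and not in mm39. Capitals mark the matches, on either strand, to the 4 motifs searched. These were the TATA-box letters TATAAA, the E-box letters CACGTG, the nuclear receptor half-site AGGTCA, which the other strand reads as TGACCT, and the GC box letters CCGCCC. Their matches do not overlap in these windows.
Hsd17b13, chr5:103977339-103977638, minus strand: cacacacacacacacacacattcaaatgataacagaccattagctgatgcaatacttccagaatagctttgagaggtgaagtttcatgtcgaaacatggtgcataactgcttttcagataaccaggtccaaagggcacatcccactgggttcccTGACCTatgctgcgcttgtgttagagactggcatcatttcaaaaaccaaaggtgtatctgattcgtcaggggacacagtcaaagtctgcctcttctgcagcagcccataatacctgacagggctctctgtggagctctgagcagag
Hsd17b11, chr5:104021747-104022046, minus strand: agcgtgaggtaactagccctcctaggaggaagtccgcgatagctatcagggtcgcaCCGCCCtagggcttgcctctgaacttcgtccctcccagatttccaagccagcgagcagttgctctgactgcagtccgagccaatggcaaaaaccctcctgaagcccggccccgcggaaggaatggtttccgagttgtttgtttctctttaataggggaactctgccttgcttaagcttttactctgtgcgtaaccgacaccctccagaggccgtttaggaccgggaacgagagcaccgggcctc
Nudt9, chr5:104046614-104046913, plus strand: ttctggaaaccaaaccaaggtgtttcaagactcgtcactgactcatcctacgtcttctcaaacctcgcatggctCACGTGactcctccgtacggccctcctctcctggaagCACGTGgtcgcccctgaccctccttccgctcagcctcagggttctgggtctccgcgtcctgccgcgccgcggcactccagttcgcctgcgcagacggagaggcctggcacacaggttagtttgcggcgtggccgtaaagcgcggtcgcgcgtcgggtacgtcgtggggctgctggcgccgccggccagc

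The 3 windows differed in base composition. The Hsd17b13 window had a GC content of 47.0% and 3 CpG dinucleotides, the Hsd17b11 window 57.0% and 18, and the Nudt9 window 65.0% and 32. Over all 32851 RefSeq windows of this length the medians were 52.7% and 7. The AGGTCA match of Hsd17b13 lay at position -96 from the start, and 16.3% of all windows hold this motif. The CCGCCC match of Hsd17b11 lay at -194, with 35.7% of all windows holding it. The 2 CACGTG matches of Nudt9 lay at -176 and -139, with 7.15% of all windows holding at least 1. No window of the 3 held TATAAA, which 13.6% of all windows hold. The table matched 5 of the 7 genes, and its windows for Ptpn13 and Aff1 are not shown.

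Hsd17b13 was the most abundant of the 7 genes in every group, and its level was higher in the knockout livers of both sexes. Female knockout livers had 889, 746 and 764 CPM, against 450, 470 and 409 CPM in female wild type livers. Male knockout livers had 593, 935 and 611 CPM, against 524, 459 and 389 CPM in male wild type livers. All knockout libraries lay above all wild type libraries of the same sex, with male knockout replicate 2 the highest of the male libraries. The fitted log2 fold change, knockout over wild type, was 0.85 ± 0.20 (SE, n = 3 against 3) in females and 0.64 ± 0.20 in males. The SE comes from 1 fit of all 12 libraries and is not the spread of the groups compared. Without male knockout replicate 2 the male value was 0.40, the lowest of the 12 fits that left out 1 library.

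Hsd17b11 was higher in knockout livers of both sexes, with little spread within groups. In females, knockout livers had 290, 334 and 357 CPM, against 151, 123 and 135 CPM in female wild type livers. In males, knockout livers had 274, 295 and 266 CPM, against 173, 183 and 143 CPM in male wild type livers. All 6 knockout libraries lay above all 6 wild type libraries, whatever the sex. The log2 fold change was 1.26 ± 0.16 (SE) in females and 0.74 ± 0.16 in males.

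Nudt9, the next gene beyond Hsd17b11, was separated by line in the same way. There were 78.3, 62.5 and 72.3 CPM in female knockout livers, against 34.6, 31.7 and 36.1 CPM in female wild type livers. Males had 53.6, 68.2 and 53.6 CPM in knockout livers, against 32.0, 37.1 and 32.2 CPM in male wild type livers. The 6 knockout libraries again lay above the 6 wild type libraries. The log2 fold change was 1.06 ± 0.17 (SE) in females and 0.79 ± 0.17 in males.

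**Figure D1:**
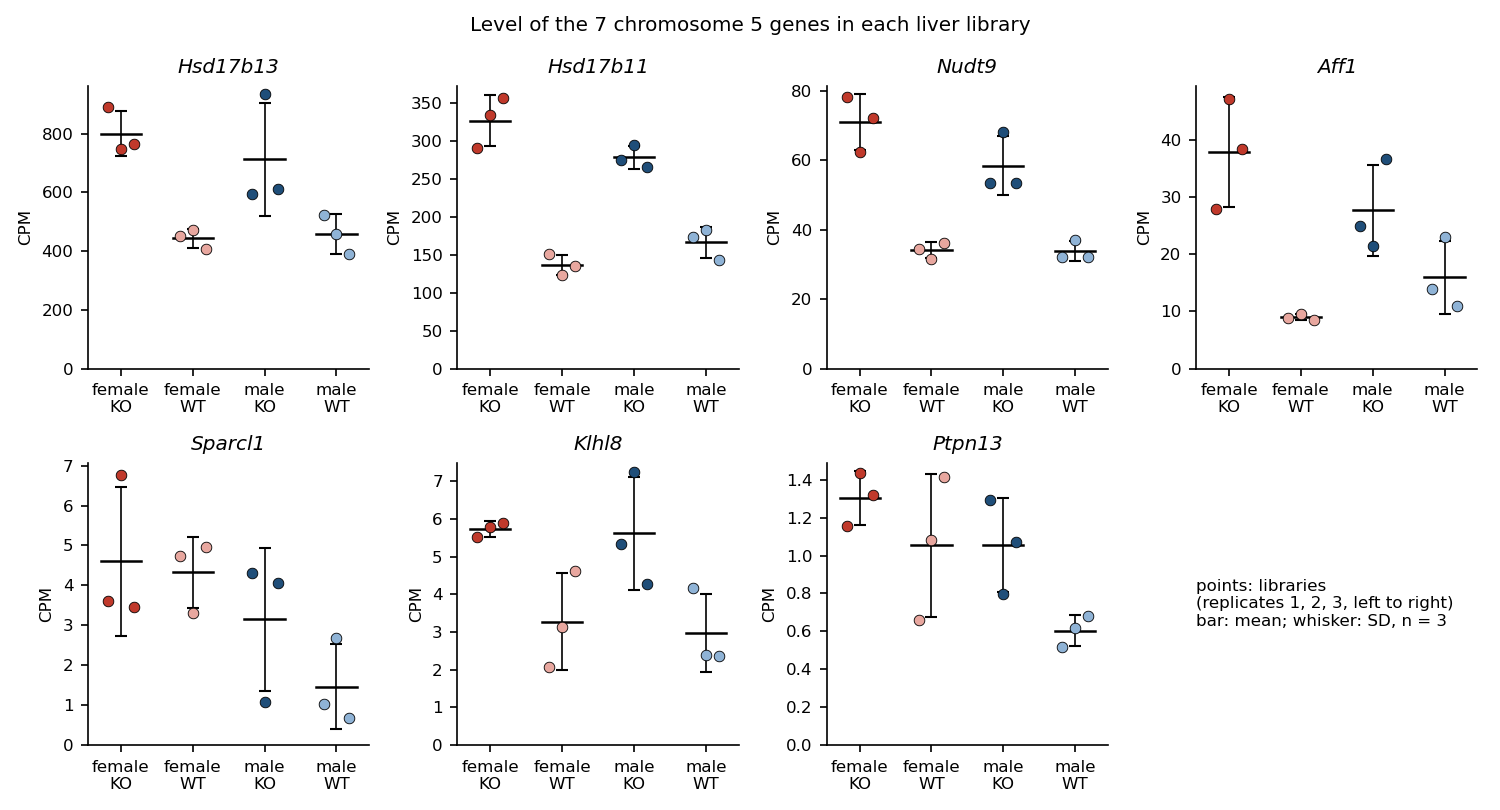
Level of each of the 7 genes in every library, in CPM on a linear axis from 0, with 1 panel per gene and the groups side by side; points are replicates, bars the mean and whiskers the SD (n = 3). Hsd17b13, Hsd17b11, Nudt9 and Klhl8 had every knockout library above every wild type library of the same sex, while Sparcl1 overlapped in both sexes.

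Because Hsd17b13 and Hsd17b11 are related in sequence, their annotated transcripts were compared. The longest identical run shared by any pair of their transcripts was 20 bases in the GENCODE M21 annotation. The ratio of raw counts of the 2 genes was then taken within each library, where library scaling cancels. For each 100 counts of Hsd17b13 there were 32.7, 44.7 and 46.7 counts of Hsd17b11 in female knockout livers, against 33.4, 26.2 and 33.1 in female wild type livers. In males the ratio was 46.2, 31.6 and 43.6 in knockout livers, against 33.0, 39.9 and 36.9 in wild type livers. The groups overlapped in both sexes, with the highest female ratios in knockout replicates 2 and 3.

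For each 100 counts of Hsd17b13 there were 8.81, 8.37 and 9.46 counts of Nudt9 in female knockout livers, against 7.68, 6.74 and 8.85 in female wild type livers. In males there were 9.03, 7.30 and 8.77 in knockout livers, against 6.12, 8.08 and 8.30 in wild type livers. These groups overlapped too. The ratio of Nudt9 to Hsd17b11, in counts per 100 counts, was 27.0, 18.7 and 20.3 in female knockout livers, against 23.0, 25.7 and 26.7 in female wild type livers. It was 19.5, 23.1 and 20.1 in male knockout livers, against 18.6, 20.2 and 22.5 in male wild type livers, and again neither pair of groups was apart.

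**Figure D2:**
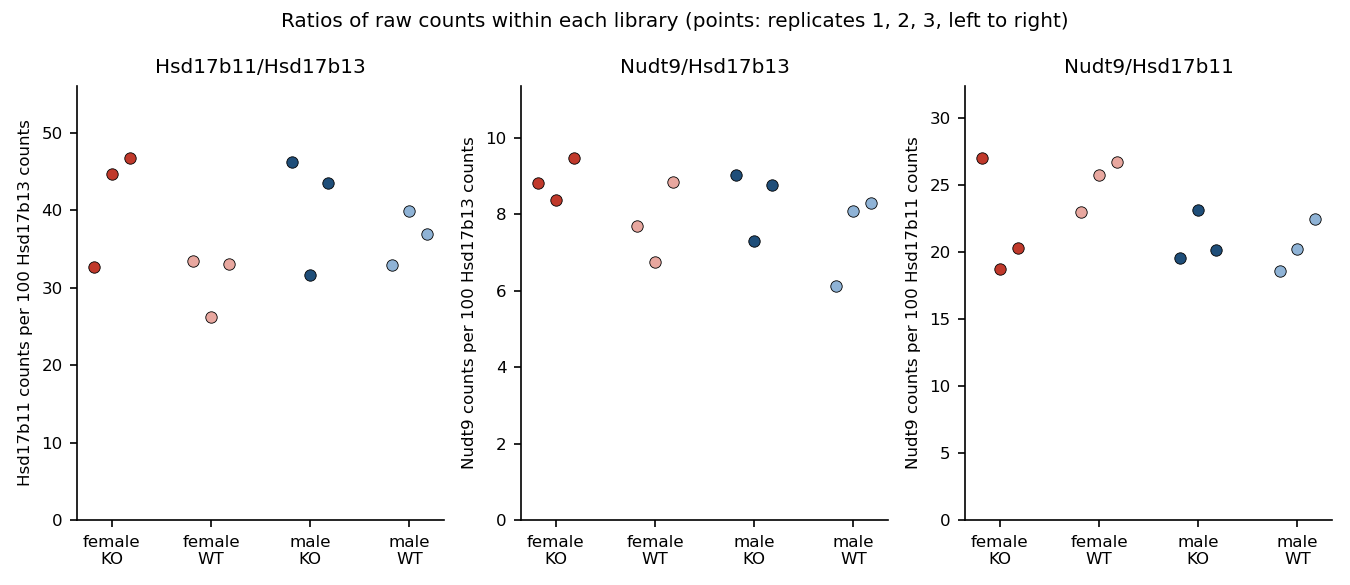
Ratios of raw counts within each library for the 3 pairs of Hsd17b13, Hsd17b11 and Nudt9, in counts per 100 counts of the second gene, by group; points are replicates. Knockout and wild type groups of the same sex overlap in all 3 panels.

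Aff1 had the largest female fold change of the 7 genes. Female knockout livers had 27.9, 47.2 and 38.4 CPM, against 8.88, 9.50 and 8.49 CPM in female wild type livers, and the groups were far apart. Male knockout livers had 24.9, 21.4 and 36.6 CPM, against 13.9, 23.0 and 10.8 CPM in male wild type livers. The male groups overlapped, since wild type replicate 2 lay above knockout replicate 2. The log2 fold change was 2.08 ± 0.30 (SE) in females and 0.80 ± 0.29 in males.

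The length slopes given above moved with the female value of Aff1, whose gene model is 9458 bases long. With the length slope as a covariate the female log2 fold change of Aff1 was 0.98, and with the smooth length trend removed it was 1.64. The female values of Hsd17b13, with a gene model of 2157 bases, were higher under the same settings, 1.24 and 1.23. Those of Hsd17b11 were 1.10 and 1.38, and those of Nudt9 were 1.27 and 1.36. In males the values of these 4 genes were between 0.66 and 0.85 under both settings. What part of the female values belongs to the length slope was not tested beyond these 2 settings.

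**Figure D3:**
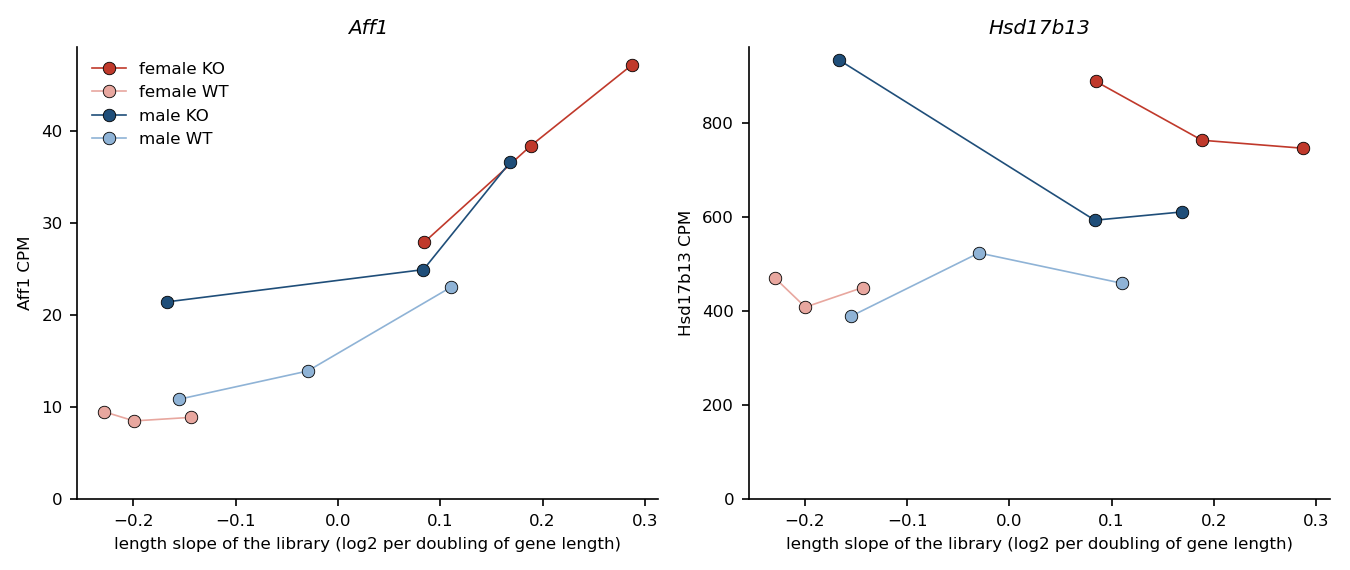
Level of Aff1 (left panel) and Hsd17b13 (right panel), in CPM on an axis from 0, against the length slope of each library. The slope is that of a library's log2 CPM deviation on log2 gene length. Points are libraries, coloured by group and joined by lines within a group. On the slope axis the female knockout libraries lie between 0.084 and 0.29 and the female wild type libraries between -0.23 and -0.14. The male groups overlap on that axis.

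Klhl8 was a gene of low level with all knockout libraries above all wild type libraries of the same sex. Its levels were 5.51, 5.79 and 5.91 CPM in female knockout livers, against 2.08, 3.12 and 4.63 CPM in female wild type livers. They were 5.34, 7.24 and 4.29 CPM in male knockout livers, against 4.17, 2.40 and 2.36 CPM in male wild type livers, and the gap in males was small. The log2 fold change was 0.82 ± 0.32 (SE) in females and 0.90 ± 0.32 in males.

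Ptpn13, at the far end of the span, had the lowest levels. Female knockout livers had 1.16, 1.44 and 1.32 CPM, against 0.662, 1.08 and 1.42 CPM in female wild type livers, which overlapped. Male knockout livers had 1.30, 0.796 and 1.07 CPM, against 0.515, 0.615 and 0.682 CPM in male wild type livers, which did not. The log2 fold change was 0.32 ± 0.35 (SE) in females and 0.82 ± 0.38 in males.

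Sparcl1 overlapped between lines in both sexes. Female knockout livers had 3.60, 6.76 and 3.45 CPM, against 4.73, 3.32 and 4.95 CPM in female wild type livers. Male knockout livers had 4.32, 1.09 and 4.05 CPM, against 1.03, 2.68 and 0.682 CPM in male wild type livers. The log2 fold change was 0.08 ± 0.50 (SE) in females and 1.12 ± 0.54 in males. The highest value was in female knockout replicate 2, the library with the muscle genes, and without it the female value was -0.30. The low value of male knockout replicate 2 stood beside the lowest sum of vascular endothelial markers among the 12 libraries, 65.4 CPM. The part of either in the Sparcl1 values was not tested.

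The length settings also moved the female log2 fold changes of these 3 genes of low level. That of Klhl8, with a gene model of 3489 bases, was 1.34 with the slope as a covariate and 0.89 with the trend removed. Those of Ptpn13, the longest at 12102 bases, were 0.07 and -0.22, and those of Sparcl1 were -2.21 and 0.27.

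Per kilobase of gene model, the order of levels was led by the same 3 genes in every group. Hsd17b13 had 371 ± 36.0 CPM per kb (SD, n = 3) in female knockout livers, against 205 ± 14.6 in female wild type livers. It had 331 ± 89.1 CPM per kb in male knockout livers, against 212 ± 31.3 in male wild type livers. Among the 14003 genes, ordered by this measure, Hsd17b13 ranked 123 in female knockout livers, against 358 in female wild type livers. In males it ranked 183 in knockout livers, against 311 in wild type livers. Hsd17b11 had 100.1 and 85.3 CPM per kb in female and male knockout livers, against 41.8 and 51.0 in female and male wild type livers. Nudt9 had 29.7 and 24.4 CPM per kb in female and male knockout livers, against 14.3 and 14.1 in female and male wild type livers. These 3 genes and the other 4 were separated by more than their SDs in every group.

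Below them, Aff1, Sparcl1 and Klhl8 were not separated from each other in all groups. In female wild type livers Aff1 had 0.947 ± 0.0539 CPM per kb (SD, n = 3), Klhl8 0.940 ± 0.368 and Sparcl1 1.48 ± 0.302. In female knockout livers Aff1, at 4.00 ± 1.02 CPM per kb, stood above Klhl8, at 1.64 ± 0.0576, and Sparcl1, at 1.57 ± 0.637, which did not differ beyond their spread. Ptpn13 was last in every group, with 0.108 and 0.0871 CPM per kb in female and male knockout livers, against 0.0871 and 0.0499 in female and male wild type livers.

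Over the 7 genes, edgeR's quasi-likelihood fit with adjustment over all tested genes placed 4 of 7 past an adjusted p of 0.05 in females, all higher in knockout livers: Hsd17b13, Hsd17b11, Nudt9 and Aff1. Of all tested genes 17.7% were called higher and 36.5% in either direction, and since the genes were chosen on this contrast nothing is read from the count. The 4 calls were lost without female knockout replicate 2, where 4 genes (0.028%) were called in all, and without female wild type replicate 2, where 5 (0.0347%) were. Their log2 fold changes remained close to those of the full fit. Without female knockout replicate 2 they were 0.90 for Hsd17b13, 1.25 for Hsd17b11, 1.14 for Nudt9 and 1.89 for Aff1. Without female wild type replicate 2 they were 0.89 for Hsd17b13, 1.19 for Hsd17b11, 1.00 for Nudt9 and 2.12 for Aff1. The fit with the length slope as a covariate called 10 genes in all (0.0714%), Nudt9 among them. In males 0 of 7 were called, where 0.0571% of tested genes, 8 in number, were called at all. At an unadjusted p under 0.05 there were 5 of the 7 in males, beside 4.84% of tested genes. DESeq2's Wald test called 34 genes in males (0.243%), 2 of them of the 7, Hsd17b11 and Nudt9. The male results were known at the choice too, so nothing is read from these counts either.

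All 7 log2 fold changes were above 0 in both sexes. The share of tested genes above 0 was 51.9% in females and 49.4% in males. The median of the 7 was 0.85 in females, against 0.05 over all tested genes, and 0.80 in males, against -0.003. Every knockout library lay above every wild type library for 5 of 7 genes in females (27.6% of tested genes did) and for 5 of 7 in males (5.1%). Hsd17b13, Hsd17b11, Nudt9 and Klhl8 were apart in both sexes, as were 191 tested genes (1.36%). The 7 genes were chosen with these differences known, and the shares are given as a description.

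**Figure D4:**
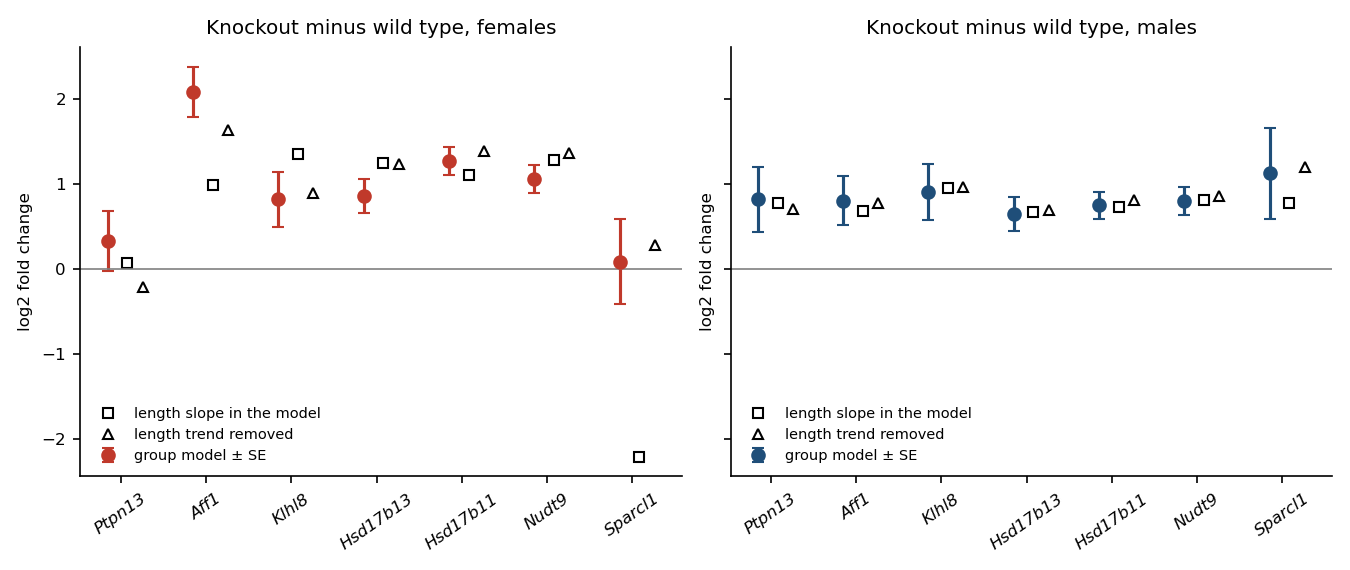
Log2 fold change, knockout over wild type, of the 7 genes in order of position, in females and in males; filled points with bars are the group model ± SE, and open symbols the values with the length slope in the model and with the length trend removed. In males all 7 values lie between 0.64 and 1.12, and in females they range between 0.08 and 2.08.

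Averaged over both sexes, the log2 fold change was 0.75 ± 0.14 (SE) for Hsd17b13, 1.00 ± 0.12 for Hsd17b11 and 0.92 ± 0.12 for Nudt9. It was 1.44 ± 0.21 for Aff1, 0.86 ± 0.23 for Klhl8, 0.60 ± 0.36 for Sparcl1 and 0.57 ± 0.26 for Ptpn13. By this contrast 5 of 7 were called higher by edgeR, where 7.78% of tested genes were. The genes were chosen with the knockout against wild type results known, so nothing is read from the calls in this paragraph. Hsd17b11, Nudt9 and Aff1 were called in each of the 12 fits that left out 1 library, in which between 18 genes (0.126%, without female knockout replicate 2) and 5594 genes (38.7%, without male knockout replicate 2) were called in all. Hsd17b13 was called in 6 of the 12, and its call was lost without female knockout replicate 2, female wild type replicates 1 and 2, male knockout replicate 1 and male wild type replicates 1 and 3. Klhl8 was called in 3 of the 12, those without female wild type replicate 3, male knockout replicate 2 and male wild type replicate 2. Sparcl1 was called in 1, without male wild type replicate 2, and Ptpn13 in 0. The replicate block left 0.164% of tested genes called, with Hsd17b11, Nudt9 and Aff1 among them, and the length slope as a covariate left 0.15%, with Hsd17b11, Nudt9 and Hsd17b13 among them.

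The knockout effect of males minus that of females was negative for 4 of the 7 genes. It was -0.21 ± 0.28 (log2, SE) for Hsd17b13, -0.52 ± 0.23 for Hsd17b11, -0.27 ± 0.23 for Nudt9 and -1.28 ± 0.41 for Aff1. It was 1.04 ± 0.73 for Sparcl1, 0.49 ± 0.52 for Ptpn13 and 0.08 ± 0.45 for Klhl8. By edgeR 0.0% of tested genes had a difference past the threshold, while 22.5% had an unadjusted p under 0.05 and DESeq2 called 1.56%, none of the 7 among them. Without the filter on low counts edgeR called 5.67% of the genes then tested, Aff1 among them (-1.29). With the length slope as a covariate the value of Aff1 was -0.30.

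Males and females of 1 line were compared to show how the 7 genes vary without the line. The choice of the genes names no contrast between the sexes, so p-values are given here. It was made with results of the same libraries known, so these tests are not independent of it. In wild type livers 0 of 7 genes differed between males and females by edgeR, where 4.49% of tested genes did. The log2 difference of Hsd17b13 between male and female wild type livers, male minus female, was 0.05 ± 0.20 (SE, edgeR adjusted p = 0.908). Hsd17b11 differed by 0.29 ± 0.16 (edgeR adjusted p = 0.307) and Nudt9 by -0.02 ± 0.17 (edgeR adjusted p = 0.963). Klhl8 differed by -0.12 ± 0.33 and Ptpn13 by -0.79 ± 0.38 (edgeR adjusted p = 0.848 and 0.248).

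Aff1 and Sparcl1 were the 2 genes with an unadjusted p under 0.05 in this contrast, beside 22.0% of tested genes. All 3 male wild type libraries had more Aff1 than the 3 female ones (log2 difference 0.83 ± 0.29 SE, edgeR adjusted p = 0.132). All 3 male wild type libraries had less Sparcl1 than the 3 female ones (-1.56 ± 0.53, edgeR adjusted p = 0.122). Sparcl1 passed the threshold in DESeq2's Wald test (adjusted p = 0.0408), which called 8.76% of tested genes. It also passed with the length slope in the model (log2 difference -2.73, edgeR adjusted p = 0.000142) and without the filter on low counts (edgeR adjusted p = 0.00169). It passed as well without male wild type replicate 2 (-2.31, edgeR adjusted p = 0.0381), and without male knockout replicate 2, where the difference stayed at -1.56. Aff1 passed without the filter on low counts (0.86, edgeR adjusted p = 0.0193).

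In knockout livers 0 of 7 genes differed between males and females, where 5.4% of tested genes did by edgeR. None of the 7 had an unadjusted p under 0.05 there, beside 22.5% of tested genes, and DESeq2 called none of them, beside 9.96%. The log2 difference, male minus female, was -0.17 ± 0.20 (SE) for Hsd17b13, -0.23 ± 0.16 for Hsd17b11 and -0.28 ± 0.16 for Nudt9 (edgeR adjusted p = 0.639, 0.409 and 0.321). It was -0.45 ± 0.28 for Aff1 and -0.52 ± 0.50 for Sparcl1 (edgeR adjusted p = 0.362 and 0.547). These p-values do not show that the levels were alike.

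The genes around the 7 were described by position. Of 53 genes listed within 1 Mb of the span, 46 are others, 27 of which had 0 counts in all libraries and 9 of which were tested. No other gene between Ptpn13 and Sparcl1 was tested, the most abundant being Slc10a6 with 66 counts over 12 libraries. Of the 9 tested neighbours, 3 were above 0 in females and 4 in males, beside 51.9% and 49.4% of all tested genes. The 7 genes were chosen with their direction known and the neighbours were not, so nothing is read from setting them side by side.

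Nearest on the far side of Sparcl1, Spp1 (osteopontin) starts 457.7 kb from the Hsd17b13 start and was lower in female knockout livers, at 25.1 CPM, against 40.4 CPM in female wild type livers (log2 fold change -0.69 ± 0.19 SE, edgeR adjusted p = 0.0188). With the length trend removed its female value was -0.12, and with the length slope as a covariate -0.38. Spp1 is also a bile duct gene, and the summed cholangiocyte markers, Spp1 included, were 36.9 to 46.96 CPM in female knockout livers, against 48.4 to 57.2 CPM in female wild type livers. Without Spp1 the other 7 summed to 15.95 to 19.8 CPM in female knockout livers, against 9.78 to 12.8 CPM in female wild type livers, so both sums were apart, in opposite directions. The next gene, Pkd2 (polycystin 2), had 0.61 ± 0.28 in females (edgeR adjusted p = 0.0994) and 0.11 in males. Beyond it, Thoc2l had -0.07 and -0.03 in females and males, and an unnamed lncRNA (ENSMUSG00000120166) had -0.07 and 0.41. Zfp951 had -0.36 and -0.55, Abcg3 -0.38 and -1.08, Gbp8 -0.26 and 0.47, and Gbp9 0.52 and -0.20. On the other side, Arhgap24, a GTPase-activating protein gene whose start lies at -1496 kb from it, rose in female knockout livers (7.55 CPM, against 3.87 CPM in female wild type livers; 0.96 ± 0.28, edgeR adjusted p = 0.0217). Its female value was 0.19 with the length slope as a covariate, and its male value 0.51 ± 0.28. Spp1 was called in 9 of the 12 fits that left out 1 library, the exceptions being those without female knockout replicate 2 and female wild type replicates 1 and 2. Arhgap24 was called in 8 of the 12, the exceptions being those without female knockout replicates 2 and 3 and female wild type replicates 2 and 3. In males 0 of the 9 neighbours were called by edgeR, with 1 at an unadjusted p under 0.05 and 0 called by DESeq2. The shares of all tested genes were 0.0571%, 4.84% and 0.243%.

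**Figure D5:**
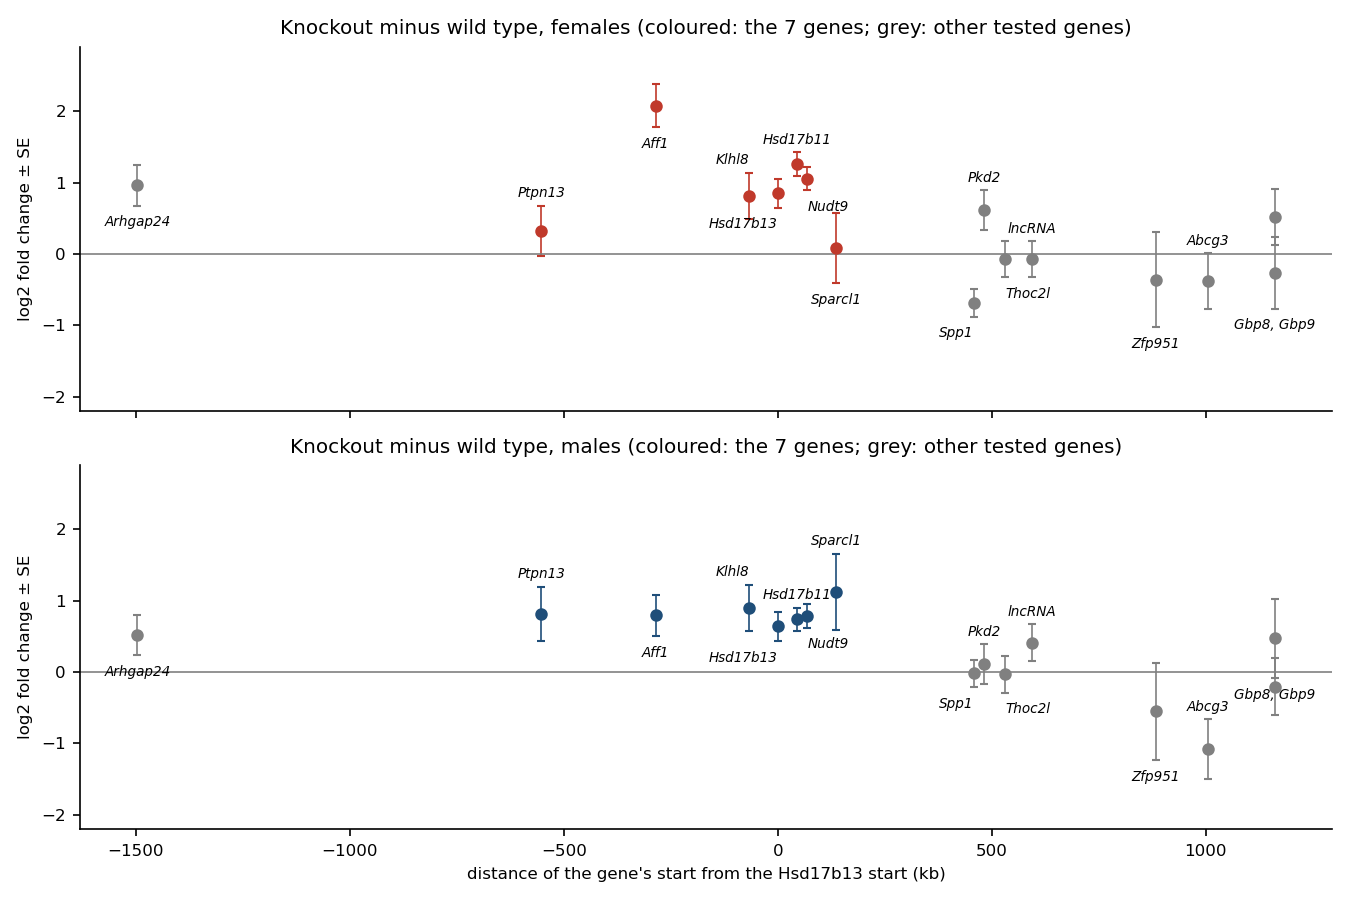
Log2 fold change ± SE, knockout over wild type, of every tested gene of the window against the distance of its start from the Hsd17b13 start in kb, for females and males; coloured points are the 7 genes and grey points the other tested genes. In males the 7 genes lie between 0.64 and 1.12, and the nearest grey points, from Spp1 to Thoc2l, lie between -0.03 and 0.11, followed by the lncRNA at 0.41, with Arhgap24 on the other side at 0.51. The 7 genes were chosen on this difference and the grey ones were not.

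Genes across the genome were ordered by how closely their library-by-library log2 CPM followed Hsd17b13 after each gene was centred on its mean over the 12 libraries. The libraries share their scaling, and the differences between lines are part of this likeness. The 7 genes were chosen with those differences known, which favours high ranks among them, so their ranks are given as a description. Of 8835 candidates the closest to Hsd17b13 was its neighbour Nudt9, with a root mean square difference of 0.179 log2 units, beside an SD of Hsd17b13 of 0.437. Next were Ccdc50 on chromosome 16 (0.212), Cd68 on chromosome 11 (0.242) and Mprip on chromosome 11 (0.245). Hsd17b11 was rank 5 (0.252) and Klhl8 rank 89 (0.321), while Aff1 was rank 4712 (0.602) and Sparcl1 rank 8393 (0.989). For Hsd17b11, with an SD of 0.555 and 7661 candidates, the closest was again Nudt9 (0.186), before Klf7 on chromosome 1 (0.202), Mfsd12 on chromosome 10 (0.236) and Unk on chromosome 11 (0.239). Hsd17b13 was rank 7 in that order, Klhl8 rank 471, Aff1 rank 746 and Sparcl1 rank 6512. Ptpn13 was not among the candidates, which needed an average log2 CPM of at least 1. Candidates also needed an SD over libraries of at least a set share of that of the gene compared, so the pools differ in size. Genes with Gm-number or Rik symbols were left out.

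The rest of the hydroxysteroid dehydrogenase family was described beside its chromosome 5 members. Of 7 other tested family genes, 0 rose, 3 fell and 4 did not pass the test in female knockout livers, with a median log2 fold change of -0.29, against 0.05 over all tested genes. Over all tested genes 17.7% were called higher, 18.8% lower and 36.5% in either direction in this contrast. Hsd17b10, a mitochondrial enzyme of branched-chain amino acid breakdown, fell to 112.7 CPM in female knockout livers, against 237.6 CPM in female wild type livers (-1.08 ± 0.26 SE, edgeR adjusted p = 0.0143). Hsd17b12, of fatty acid elongation, fell by 0.66 ± 0.18 (edgeR adjusted p = 0.0174), and Hsd17b3, known in testis for testosterone synthesis, by 1.58 ± 0.49 (edgeR adjusted p = 0.0264). Hsd17b3 rests on few counts, with 0.340 CPM in female knockout livers, against 1.02 CPM in female wild type livers. Averaged over both sexes Hsd17b10 alone was called, at -0.67, where 15.1% of all tested genes were called in either direction.

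The list of other lipid droplet proteins was described beside the same shares of 17.7% higher and 18.8% lower over all tested genes. Of 39 tested genes, 4 rose, 8 fell and 27 did not pass the test in female knockout livers, with a median of 0.002. Abhd5, the activator of the lipase ATGL, fell by 1.05 ± 0.21 (log2, SE; edgeR adjusted p = 0.0139), and Ces1d, a carboxylesterase, by 1.10 ± 0.31 (edgeR adjusted p = 0.0182). Vps13c, a lipid transfer protein, had 1.62 ± 0.45 (edgeR adjusted p = 0.0181), which turned to -0.10 with the length slope in the model. Averaged over both sexes, 2 rose and 4 fell, where 7.78% of all tested genes were called higher and 7.29% lower. Among those that fell were G0s2, an inhibitor of ATGL (-1.54), and Fitm1, of lipid droplet formation (-1.41).

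HSD17B13 has been described as a retinol dehydrogenase, and genes of retinoid metabolism were listed for that reason. Of 28 tested, 3 rose, 9 fell and 16 did not pass the test in female knockout livers (17.7% and 18.8% of all tested genes were called higher and lower), with a median of -0.24. Dhrs3, a retinal reductase, rose by 0.80 ± 0.18 and Stra6l, a receptor of retinol-binding protein, by 0.86 ± 0.19. Adh7, an alcohol dehydrogenase, fell by 1.05 ± 0.24 (edgeR adjusted p = 0.014), and Aldh1a7 by 0.79 ± 0.22 (edgeR adjusted p = 0.0173). Over the mean of the sexes 2 rose and 2 fell, where 7.78% of all tested genes were called higher and 7.29% lower. Those that rose were Dhrs3 (0.48) and Stra6l (0.43), and those that fell were Rdh13 (-0.74) and Aldh1a7 (-0.56). In males the knockout and wild type means of Dhrs3 and of Stra6l differed by less than the SD of either group.

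Hsd17b13 is known as a target of the oxysterol receptor LXR through the lipogenic factor SREBP-1c, so their genes were listed too. Of 22 tested, 6 rose, 4 fell and 12 did not pass the test in female knockout livers (17.7% and 18.8% of all tested genes were called higher and lower), with a median of 0.49. Thrsp and Elovl6, genes of fatty acid synthesis and elongation, fell by 2.16 ± 0.38 and 1.41 ± 0.23 (log2, SE; edgeR adjusted p = 0.0132 for each). Lpcat3, a phospholipid acyltransferase, rose by 1.19 ± 0.28 (edgeR adjusted p = 0.0142) and Abca1, the cholesterol exporter, by 0.73 ± 0.17. Averaged over both sexes, 5 rose and 4 fell, where 7.78% of all tested genes were called higher and 7.29% lower. Among them were Mlxipl, the carbohydrate response factor ChREBP (0.73), and Thrsp (-1.37).

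The 4 lists hold 95 different tested genes. Of the 95, 37 (38.9%) were called in females by edgeR, beside 36.5% of all tested genes. None of them was called without female knockout replicate 2 or without female wild type replicate 2, where 4 and 5 genes were called in the whole table. The fold changes stayed, since all 37 kept their sign in both fits, and their median absolute log2 fold change was 0.93 and 0.95, beside 1.01 with all libraries. With the length slope as a covariate none was called either, 30 of the 37 kept their sign and the median absolute value was 0.26. Averaged over both sexes 20 of the 95 (21.1%) were called, beside 15.1% of all tested genes, and none under these 3 settings. In males 0 of the 95 were called by edgeR, with 12 at an unadjusted p under 0.05 and 1 called by DESeq2. The shares of all tested genes were 0.0571%, 4.84% and 0.243%. The male medians were -0.05 for the dehydrogenase family, -0.11 for droplet proteins, 0.11 for retinoid genes and 0.09 for LXR and SREBP-1c genes, against 0.80 for the 7 chromosome 5 genes, which were chosen on this contrast.

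Hepatocyte markers summed to 95930 to 97020 CPM in female knockout livers, against 81490 to 110300 CPM in female wild type livers, and to 68520 to 84050 CPM in male knockout livers, against 70620 to 79220 CPM in male wild type livers, so these ranges overlapped. Kupffer cell markers summed to 165.8 to 194.8 CPM in female knockout livers, against 115.6 to 171.6 CPM in female wild type livers, with 3 of 7 called higher by edgeR. Over all tested genes 17.7% were called higher and 18.8% lower in females. Sinusoidal endothelial markers summed to 193.7 to 265.2 CPM in female knockout livers, against 174.3 to 211.1 CPM in female wild type livers, with 2 of 7 called higher. Vascular endothelial markers, Sparcl1 being a gene also made by vessel cells, summed to 113.3 to 144.6 CPM in female knockout livers, against 70.8 to 106.7 CPM in female wild type livers, with 2 of 6 called higher. In males they summed to 65.4 to 124.4 CPM in knockout livers, against 79.05 to 93.9 CPM in wild type livers. Stellate cell and portal fibroblast markers summed to 253.2 to 309.1 CPM in female knockout livers, against 285.6 to 325.2 CPM in female wild type livers. In males they summed to 243.7 to 266.5 CPM in knockout livers, against 180.7 to 239.9 CPM in wild type livers, and these groups did not overlap. Lymphocyte and neutrophil markers summed to 35.8, 13.3 and 14.1 CPM in female knockout livers, against 9.73, 15.8 and 16.2 in female wild type livers. Only knockout replicate 1 lay above the wild type range, and 2 of 4 tested markers were called higher. In females 1 of 8 hepatocyte markers was called higher. Of 9 stellate cell and portal fibroblast markers 2 were called higher and 1 lower, and of 7 tested cholangiocyte markers 2 higher and 2 lower. The 1 tested marker of neighbouring tissue was called lower. Without female knockout replicate 2 or female wild type replicate 2, only 4 and 5 genes of the whole table were called in females. No marker of the 8 lists was at 0 in all libraries. In bulk tissue, fewer cells of a type and less RNA per cell cannot be told apart, and the part of these markers in the values of the 7 genes was not tested.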

How the data were processed

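Poly(A) RNA of 12 mouse livers was sequenced, and the authors deposited 1 table of raw counts per gene, with gene position and length. HISAT2 2.0.5, DESeq2 and the build mm39 appear in the submitters' processing notes; which program counted reads, and with what strand setting, is not stated there. From the counts, genes were kept with filterByExpr (14003 genes with 99.92% of counts) and fitted with edgeR 4.0.16 in R 4.3.3 (TMM, 1 mean per group, quasi-likelihood test, Benjamini-Hochberg adjustment over all tested genes, threshold 0.05; BCV 25.9%; residual df 8). The SE of a log2 fold change is its absolute value divided by the square root of its quasi-likelihood F, from the fit of all 12 libraries. CPM use the TMM library sizes. Log2 CPM for likeness and length slopes use a prior count of 2; slopes use 9366 genes. Alternatives were DESeq2 1.42.0 (Wald test and size factors), no count filter, a replicate block, the length slope as a covariate, length trends removed by lowess offsets (span 0.3), 1 sex alone and each library left out.

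The 7 genes, the gene lists and the markers were chosen with earlier results of these data known. Named genes are the 7, Cyp2e1, every tested gene within 1 Mb of their span, at most 4 called genes with the smallest adjusted p per list and contrast, and the 4 genes most like Hsd17b13 and Hsd17b11; Acta1 and Slc10a6 were named after their values were seen. With 15167730 to 25082532 counts per library, the genes of low level rest on few counts. Same-numbered replicates did not deviate together across groups (correlations -0.613 to 0.277), so replicate numbers were not taken as pairs in the main fit. With 3 libraries a group these correlations cannot exclude a pairing. Coordinates of genes are mm39 as deposited, and promoter windows are RefSeq on GRCm38.p6.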

Additional observations from a re-analysis of the deposited data

Results flagged for a closer look

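Genes of the lists whose knockout libraries all lay below the wild type mean in females and all above it in males were taken up as differing between the sexes. Hsd17b3 had a mean log2 CPM difference, knockout minus wild type, of -1.44 in females and 0.33 in males. Its group means were low, between 0.316 CPM (male wild type) and 1.02 CPM (female wild type), so both values rest on few counts. Ces1d had -1.11 in females and 0.54 in males, and Adh7 had -1.03 in females and 0.37 in males. Male Ces1d was 711.9 ± 386.8 CPM (SD) in knockout livers, against 450.2 ± 37.5 CPM in wild type livers. Male Adh7 was 31.9 ± 10.3 CPM in knockout livers, against 24.2 ± 4.74 CPM in wild type livers. For both genes the male means differed by less than the SD of the knockout group. The difference between the sexes was not tested for this pattern by itself, and edgeR's test of the male minus female knockout effect called 0 genes.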

How the results depend on the processing

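Counts of called genes depended on the settings. In females 5116 genes were called, with 3365 under the replicate block, 10 with the length slope in the model and 4 to 5993 when 1 library was left out. In males 8 were called, with 101 without the count filter, 18 with the length slope, 1 with males only, 34 by DESeq2 and 5 to 18 with 1 library left out. Over the mean of the sexes 2111 were called, with 3900 without the filter, 23 under the replicate block, 21 with the length slope, 3959 by DESeq2 and 18 to 5594 with 1 library left out. The block and the length slope both left Hsd17b11 and Nudt9 called there, from which nothing is read, since they were chosen with this difference known. The male minus female knockout effect was called for 0 genes, with 1451 without the filter, 3 with the length slope, 218 by DESeq2 and 0 to 2 with 1 library left out. Between male and female wild type livers 629 were called, with 1700 without the filter, 415 under the replicate block, 1226 by DESeq2 and 379 to 1124 with 1 library left out. Between male and female knockout livers 756 were called, with 1694 without the filter, 1395 by DESeq2 and 440 to 953 with 1 library left out. Vps13c in females turned to -0.10 with the length slope. Of 280 alternative log2 fold changes of the 7 genes in the female and male knockout contrasts, 269 stayed within 1 SD of the libraries and 11 moved further. The 280 include fits that left out a library of the other sex. All but 1 of the 11 were female values under the length settings. Hsd17b13, Nudt9 and Aff1 moved under both settings, Hsd17b11, Sparcl1 and Klhl8 with the length slope, and Ptpn13 with the length trend removed. In 4 of the 280 the sign turned, for Sparcl1 in females (-2.21 with the length slope, -0.30 without knockout replicate 2, -0.08 without wild type replicate 2) and Ptpn13 in females (-0.22 with the length trend removed). The causes were not tested. With 3 libraries a group, Ptpn13, Sparcl1 and Klhl8 rest on few counts.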
